A study of Mus musculus with 5 samples.

Results

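The vascular endothelial growth factors and the angiopoietins are 2 families of secreted proteins that act on tyrosine kinase receptors of the vessel wall. The 10 genes followed here are 6 ligand genes, Vegfa, Vegfb, Vegfc, Pgf, Angpt1 and Angpt2, and 4 receptor genes, Flt1, Kdr, Flt4 and Tek. They were chosen by name as the core ligands and receptors of both systems, and all 10 were found among the 32285 genes listed in the count matrices.

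The study profiled RNA of single nuclei from 5 white adipose depots of wild-type male mice aged 10 weeks and fed chow, with 1 pooled library per depot. The libraries are subcutaneous (SWAT, 6 mice pooled), epididymal (EWAT, 6 mice), mesenteric (MWAT, 10 mice), perirenal (NWAT, 6 mice) and peri-heart fat (HWAT, 20 mice). Neighbouring lymph nodes were cut away from SWAT and MWAT, the animals were perfused with heparin, and at least 8000 nuclei were loaded per library with a sequencing goal of at least 20000 reads per nucleus. The protocol names the strain C57BL/6J for all depots, while the strain field reads C57BL/9J in HWAT, C57BL/8J in NWAT, C57BL/7J in MWAT and C57BL/6J in the other libraries. No depot has a second library, so differences between depots have no replicate check, no p-values are given, and intervals below are exact 95% intervals that cover counting error only.

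As background, VEGF-A binds the receptors FLT1 and KDR and is the main growth signal for blood vessel endothelium, and its gene is switched on when oxygen is low. VEGF-C acts through FLT4, a receptor of lymphatic endothelium, and angiopoietin-1 and angiopoietin-2 are an activating and a context-dependent ligand of the TEK receptor, also named TIE2. White fat is densely supplied with capillaries, and adipocytes are a known source of VEGF-A for them.

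The matrices held 76040 barcodes, and 66249 nuclei were retained after removal of 149 nuclei by filters on genes and mitochondrial RNA and 9642 predicted doublets. Retained nuclei numbered 11094 in SWAT, 15772 in EWAT, 16642 in MWAT, 11473 in NWAT and 11268 in HWAT, and their median number of unique molecular identifiers (UMIs) was 1757, 2135.5, 1200, 2590 and 1482 in the same order of depots. Any pair of libraries shared 40 to 87 barcodes, 32 to 64 of them retained in both. Nuclei were grouped with the 10 genes left out, and 41 of 42 clusters were named from marker genes into 15 classes, called "-like" because the names were rebuilt here. All 7 adipocyte markers and all 8 endothelial markers were at least 2-fold higher in their own class than in the rest of the library in every depot. The same markers named the classes, so this describes the names and is no separate check of them. A level is the UMI count of a gene summed over a class in a library and given per 1000000 UMIs of that class (CPM), and since it is not scaled to gene length, levels are compared between classes and depots and not between genes.

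The promoters of Vegfa and Vegfb, ligand genes that were higher in adipocyte-like nuclei, and of the 4 receptor genes, which were higher in endothelial-like nuclei, are shown first, as the DNA next to their start sites. The windows are from RefSeq (GRCm38.p6), 250 bases before to 50 bases after an annotated start, 5' to 3' on the gene's strand. Of the 10 genes 8 were matched, and Angpt1 and Angpt2 were not. For the ligands, capitals mark the hypoxia element core GCGTG or ACGTG on either strand (reverse complements CACGC and CACGT). Vegfa lies at chr17:46016993-46032369 on the minus strand and its window at chr17:46032328-46032627. Vegfb lies at chr19:6982473-6987651 on the minus strand and its window at chr19:6987602-6987901.
Vegfa: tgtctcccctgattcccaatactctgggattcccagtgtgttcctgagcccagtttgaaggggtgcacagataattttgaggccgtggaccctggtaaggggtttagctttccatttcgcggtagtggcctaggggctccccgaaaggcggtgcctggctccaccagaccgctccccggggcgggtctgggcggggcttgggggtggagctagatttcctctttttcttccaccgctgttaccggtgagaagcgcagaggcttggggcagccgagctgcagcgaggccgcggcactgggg
Vegfb: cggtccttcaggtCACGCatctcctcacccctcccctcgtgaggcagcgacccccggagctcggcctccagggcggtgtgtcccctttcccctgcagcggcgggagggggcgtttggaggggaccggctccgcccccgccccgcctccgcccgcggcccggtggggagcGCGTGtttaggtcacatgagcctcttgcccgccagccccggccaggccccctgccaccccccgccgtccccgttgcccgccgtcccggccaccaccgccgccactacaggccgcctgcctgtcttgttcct
The Vegfa window held neither element, so it carries no capitals, and the Vegfb window held 2 matches to GCGTG. DNA outside the windows was not searched. Among the receptor windows below, where this element is not marked, Kdr held 2 matches to GCGTG, Flt1 1, and Flt4 and Tek 0. ACGTG was in no receptor window. Of all windows of this length, 32.4% hold GCGTG and 19.6% ACGTG, over 32851 promoters. A second annotated Vegfa start, with the window chr17:46025114-46025413 inside the gene, had 1 match to each.
For the receptors, capitals mark GGAA on either strand (TTCC), the core of the motif bound by ETS factors, a family that includes the endothelial factor ERG. Flt1 is at chr5:147561604-147726011 (minus strand, window chr5:147725962-147726261), Kdr at chr5:75932827-75978458 (minus strand, window chr5:75978406-75978705), Flt4 at chr11:49609263-49652739 (plus strand, window chr11:49609429-49609728) and Tek at chr4:94739289-94874976 (plus strand, window chr4:94739039-94739338).
Flt1: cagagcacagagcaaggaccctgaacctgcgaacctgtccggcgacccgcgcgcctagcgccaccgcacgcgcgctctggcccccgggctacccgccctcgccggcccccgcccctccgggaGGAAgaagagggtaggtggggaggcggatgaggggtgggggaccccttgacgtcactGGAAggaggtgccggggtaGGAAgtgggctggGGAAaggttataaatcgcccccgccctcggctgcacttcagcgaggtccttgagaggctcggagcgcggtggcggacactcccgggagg
Kdr: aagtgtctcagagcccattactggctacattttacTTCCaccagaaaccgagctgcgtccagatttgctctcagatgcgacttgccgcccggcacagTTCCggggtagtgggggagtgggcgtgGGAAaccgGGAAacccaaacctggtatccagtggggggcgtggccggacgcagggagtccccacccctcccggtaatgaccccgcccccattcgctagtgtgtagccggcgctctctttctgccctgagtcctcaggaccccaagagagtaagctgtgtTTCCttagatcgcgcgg
Flt4: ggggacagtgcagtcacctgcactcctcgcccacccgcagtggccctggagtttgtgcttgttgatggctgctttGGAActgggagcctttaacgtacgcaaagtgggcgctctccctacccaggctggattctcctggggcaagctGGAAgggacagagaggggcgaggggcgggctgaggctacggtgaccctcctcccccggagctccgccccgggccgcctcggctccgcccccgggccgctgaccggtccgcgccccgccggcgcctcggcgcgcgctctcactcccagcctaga
Tek: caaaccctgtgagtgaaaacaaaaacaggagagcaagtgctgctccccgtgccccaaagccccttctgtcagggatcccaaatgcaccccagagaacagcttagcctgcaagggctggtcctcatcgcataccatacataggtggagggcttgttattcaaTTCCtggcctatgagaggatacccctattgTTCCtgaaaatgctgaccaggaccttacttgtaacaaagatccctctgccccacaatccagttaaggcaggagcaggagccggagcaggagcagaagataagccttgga
The counts of GGAA were 4 in Flt1, 5 in Kdr, 2 in Flt4 and 2 in Tek. The ligand windows shown above, where GGAA is not marked, held 6 in Vegfa and 2 in Vegfb. The 4 letters occur in 96.0% of all windows, so their presence does not set these genes apart, and the longer form CCGGAAG, found in 8.86% of windows, was in none of the 4. Matches are descriptions of the letters, not evidence of binding.

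Vegfa, Vegfb and Angpt1 were higher in adipocyte-like nuclei, and the 4 receptor genes, Vegfc and Angpt2 were higher in endothelial-like nuclei. The adipocyte-like level was at least 2-fold the endothelial-like level in all 5 depots for 3 of 10 genes, against 5.76% of all 17814 genes tested. In the other direction, 6 of 10 were at least 2-fold higher in endothelial-like than in adipocyte-like nuclei in all 5 depots, against 10.4% of all genes. Pgf, placental growth factor, met neither rule. The heat map of levels by class shows this split.

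**Figure D1:**
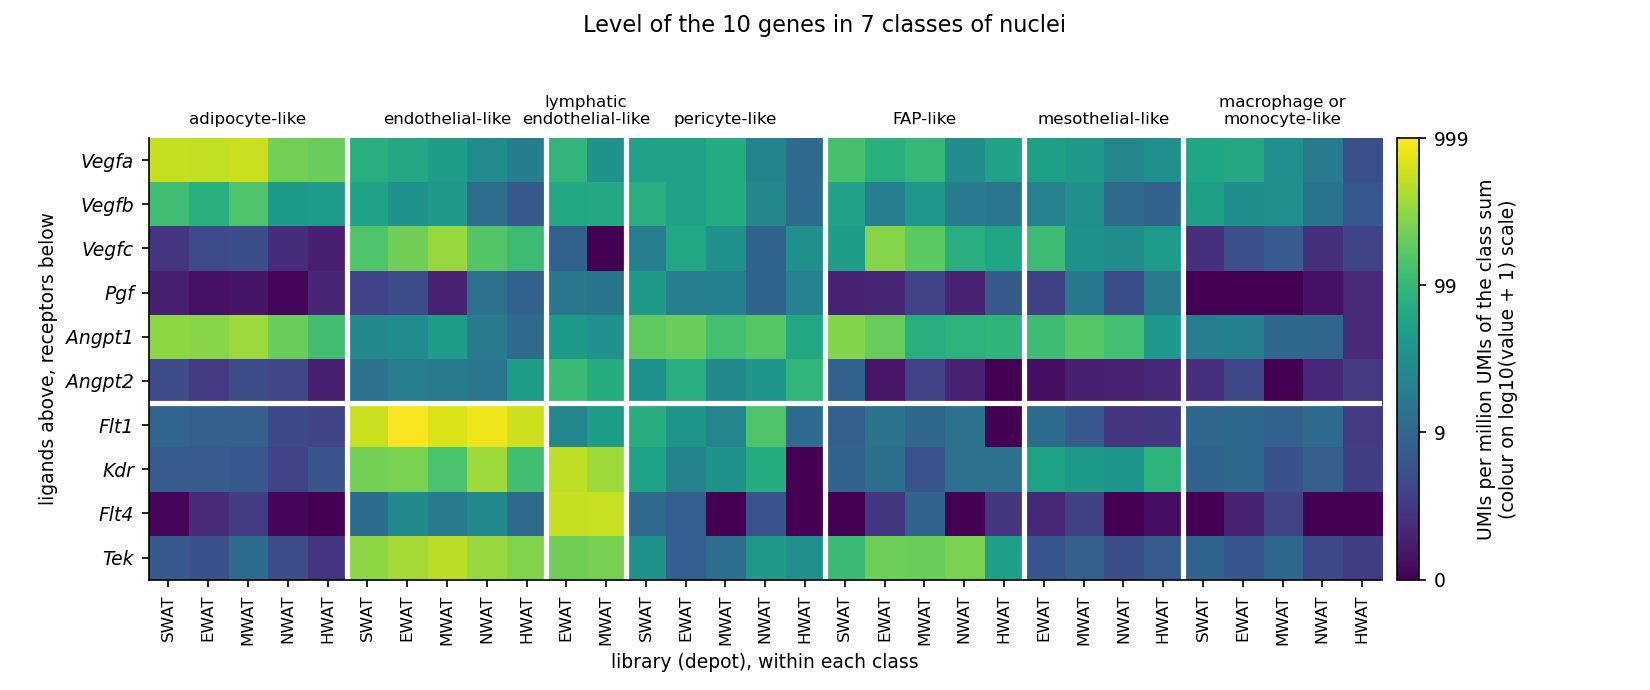
Level of each of the 10 genes (rows) by library within 7 nucleus classes (columns), as CPM on a log10(value + 1) colour scale, for class sums of at least 50 nuclei. Vegfa, Vegfb and Angpt1 are brightest in the adipocyte-like columns, Flt1 and Tek in the endothelial-like columns, and Kdr and Flt4 in the lymphatic endothelial-like columns.

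Vegfa, the main endothelial growth factor, had its highest level in adipocyte-like nuclei in all 5 libraries. Its level there was 546 CPM in SWAT (95% interval 533–558, 7671 counts), 535 in EWAT (525–545), 578 in MWAT (559–596), 230 in NWAT (223–236) and 204 in HWAT (190–220, 756 counts). In endothelial-like nuclei it was 75.5 CPM in SWAT, 64.1 in EWAT, 47.7 in MWAT, 26.7 in NWAT and 17.7 in HWAT, where it rested on 9 counts. The intervals of both classes did not overlap in any library, and adipocyte-like levels were 7.23-fold (6.33–8.29) higher in SWAT, 8.35-fold (7.37–9.5) in EWAT, 12.1-fold (9.93–14.95) in MWAT, 8.59-fold (6.98–10.7) in NWAT and 11.6-fold (6.06–25.4) in HWAT. Between 71.7% (HWAT) and 93.8% (NWAT) of a library's Vegfa UMIs came from adipocyte-like nuclei. Among the other classes the Schwann or glial-like nuclei of SWAT stood next, at 174 CPM (114–256), followed by fibro-adipogenic progenitor (FAP)-like nuclei at 133 CPM (118–149), and these intervals overlapped each other.

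The share of adipocyte-like nuclei with at least 1 Vegfa UMI was 61.4% in SWAT, 65.3% in EWAT, 51.7% in MWAT, 49.1% in NWAT and 31.9% in HWAT. In macrophage or monocyte-like nuclei, set beside them for comparison, it was 8.42%, 10.2%, 3.74%, 3.66% and 0.731% in the same order. Those UMIs can be free RNA or the class's own, which was not tested. Depth differed between the classes, with a median of 2062, 2455, 1437, 3215 and 1881 UMIs in adipocyte-like nuclei and 1520, 1759, 1075, 2066 and 1660 in macrophage or monocyte-like nuclei. After each nucleus was thinned to 1000 UMIs, shallower nuclei being left out, the adipocyte-like shares were 40.9%, 39.8%, 42.5%, 19.6% and 18.8%. At equal depth SWAT, EWAT and MWAT were thus near one another, and NWAT and HWAT stood below them, as they did in CPM.

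Vegfb, a ligand of FLT1 that does not bind KDR, was also higher in adipocyte-like than in endothelial-like nuclei, with smaller ratios. Its adipocyte-like level was 119 CPM in SWAT, 79.8 in EWAT, 147 in MWAT, 41.8 in NWAT and 43.3 in HWAT, against 55.7, 34.1, 41.4, 11.2 and 5.89 CPM in the endothelial-like nuclei of the same depots. The ratio ran from 2.14 (1.82–2.52) in SWAT to 7.34 (2.47–36.0) in HWAT, where the endothelial-like value rested on 3 counts. In SWAT and in EWAT, where the ratio was 2.34 (1.96–2.81), the lower bound fell under 2, so the 2-fold calls there lie near the threshold. Adipocyte-like nuclei had the highest Vegfb level in every library, but the interval overlapped that of the next class in EWAT, lymphatic endothelial-like at 62.5 CPM (ratio 1.28, 0.862–1.98), and in NWAT, T or NK cell-like at 29.6 CPM (ratio 1.41, 0.550–5.20). Pericyte-like levels were 23.7% to 66.5% of the adipocyte-like ones.

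Angpt1, the activating TEK ligand, was highest in adipocyte-like nuclei in every library and was also read in several other classes. Adipocyte-like levels were 310 CPM in SWAT (300–319), 295 in EWAT (288–302), 366 in MWAT (351–381), 210 in NWAT (204–216) and 124 in HWAT (113–135). FAP-like levels were 280 CPM in SWAT (258–304), 200 in EWAT, 75.8 in MWAT, 86.3 in NWAT and 90.3 in HWAT. Pericyte-like nuclei, which line capillaries, had 184, 207, 127 and 160 CPM in SWAT, EWAT, MWAT and NWAT, and 61.6 CPM on 6 counts in HWAT. Adipocyte-like and FAP-like levels were closest in SWAT, with a ratio of 1.10 (1.01–1.21), and furthest apart in MWAT, with a ratio of 4.83 (3.84–6.15). Against endothelial-like nuclei the pericyte-like level was 7.42-fold higher in SWAT (5.41–10.2) and 10.1-fold higher in NWAT (7.17–14.4). Mesothelial-like nuclei, from the sheet covering visceral depots, had 39.4 CPM in HWAT, 116 in EWAT, 126 in NWAT and 159 in MWAT, where they ranked next after adipocyte-like nuclei, with an interval that overlapped the pericyte-like one. Epithelial-like nuclei of HWAT had 94.7 CPM and skeletal muscle-like nuclei of NWAT 97.3 CPM. The skeletal muscle-like value was 46.3% of the adipocyte-like level, inside the 40.2% to 53.2% of 6 adipocyte markers (Adipoq, Plin1, Plin4, Cidec, Lipe and Acvr1c). The epithelial-like value was 76.6%, beside 1.57% to 6.34% for the same markers. The part of free RNA in either value was not tested. Angpt1 overlaps a gene on the other strand, Gm17473, which had 730 counts against 27324 for Angpt1, and whether the counting used strand is not given in the sources used here.

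**Figure D2:**
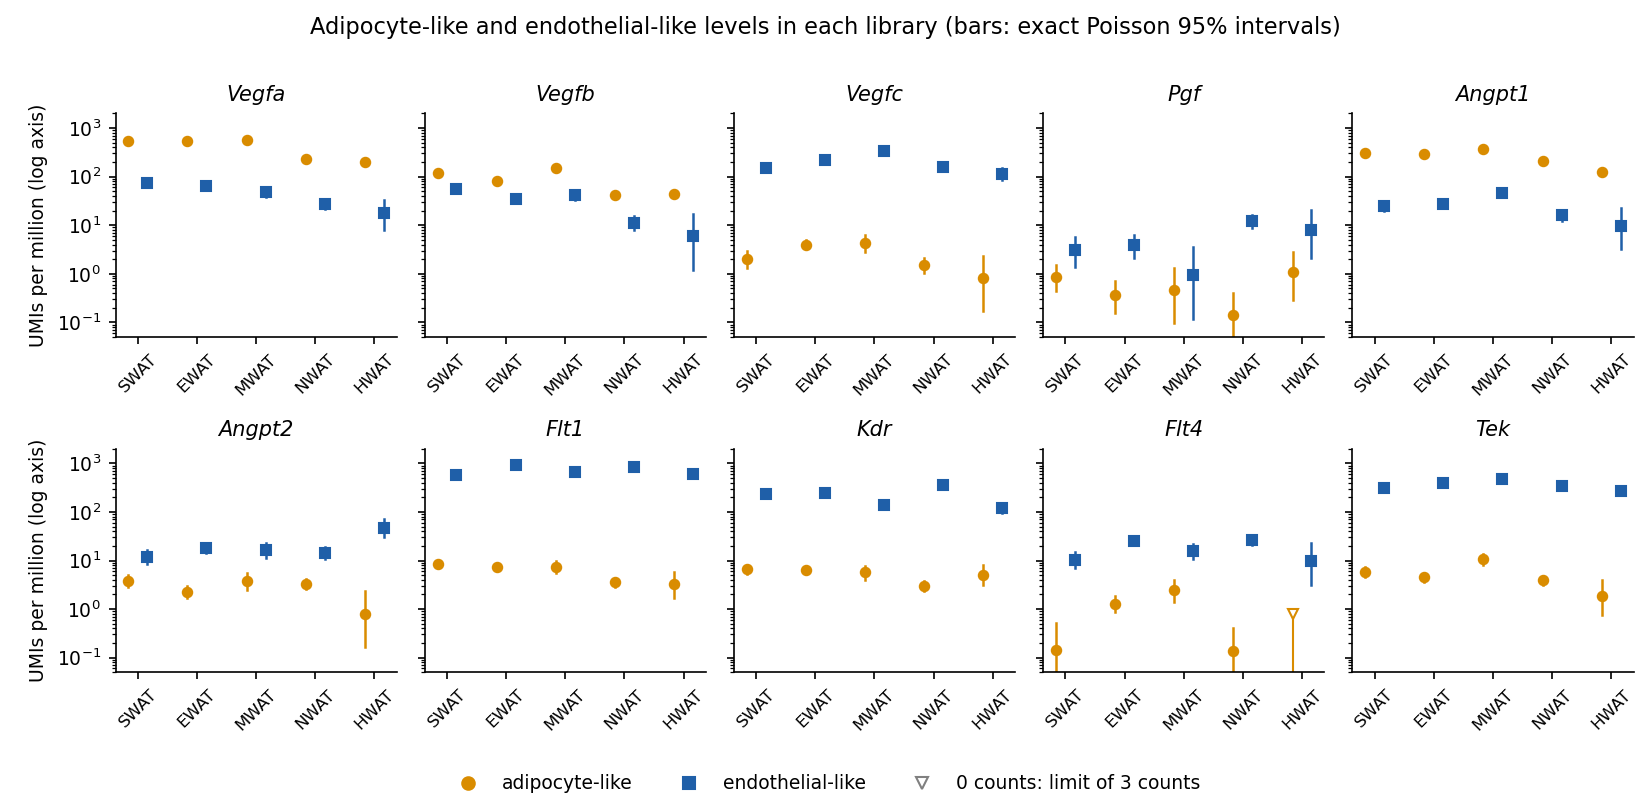
Level of each gene in adipocyte-like nuclei (left of each pair) and endothelial-like nuclei (right) in the 5 libraries, in CPM on a log axis, with exact Poisson 95% intervals as bars and an open triangle at the 3-count limit for 0 counts. The adipocyte-like points lie above the endothelial-like points for Vegfa, Vegfb and Angpt1 in every library, and below them for the 4 receptors, Vegfc and Angpt2.

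Vegfc, the ligand of FLT4 and the main lymphatic growth factor, was low in adipocyte-like nuclei and high in endothelial-like and FAP-like nuclei. Endothelial-like levels were 150 CPM in SWAT (136–165), 222 in EWAT (208–238), 344 in MWAT (319–370), 154 in NWAT (142–168) and 114 in HWAT (86.5–147, 58 counts), against adipocyte-like levels of 1.99, 4.0, 4.29, 1.49 and 0.811 CPM. FAP-like levels were 47.3 CPM in SWAT, 284 in EWAT (261–308), 175 in MWAT, 77.8 in NWAT and 58.2 in HWAT. The order of these 2 classes was not the same in every depot: the FAP-like level was 1.28-fold (1.14–1.42) the endothelial-like level in EWAT, and between 0.316-fold (SWAT) and 0.511-fold (HWAT) in the other depots. Mesothelial-like nuclei had 113 CPM in EWAT, 44.2 in HWAT, 33.3 in MWAT and 28.5 in NWAT. Since HWAT held 4095 mesothelial-like nuclei and 382 endothelial-like ones, 71.4% of that library's Vegfc UMIs were mesothelial-like. Lymphatic endothelial-like nuclei, the cells that carry its receptor, had 3 Vegfc counts in EWAT and 0 in MWAT, where 0 allows a level of up to 6.79 CPM.

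Within the endothelial-like nuclei Vegfc differed by vessel type. Sub-clusters were named arterial-like, venous-like and capillary-like from markers, and HWAT was left out because no such subset reached 50 nuclei there. The capillary-like nuclei were 49.9% of endothelial-like nuclei in SWAT, 48.1% in EWAT, 29.9% in MWAT and 61.6% in NWAT, and 4.49%, 9.08%, 33.6% and 2.94% took no vessel name. The capillary-like nuclei include a sub-cluster of 429 nuclei led by haemoglobin and adipocyte transcripts, and the ratios were recomputed without it, a choice made after the values were seen. Vegfc was 691 CPM in arterial-like nuclei of SWAT, 739 in EWAT, 934 in MWAT and 789 in NWAT. Venous-like nuclei had 81.3, 171, 363 and 138 CPM, and capillary-like nuclei 13.5, 20.5, 34.1 and 6.41 CPM in the same order of depots. The order arterial, venous, capillary held in all 4 depots without overlap of intervals, with an arterial-like over capillary-like ratio of 51.4 (32.4–86.4) in SWAT, 36.0 (25.5–52.5) in EWAT, 27.4 (17.5–45.3) in MWAT and 123 (71.1–233) in NWAT. Without the sub-cluster led by haemoglobin, the arterial-like over capillary-like ratio was 24.5 (15.3–41.7) in MWAT to 115 (61.6–241) in NWAT. The arterial-like over venous-like ratio was between 2.58 (2.07–3.24) in MWAT and 8.51 (6.57–11.1) in SWAT. The subsets were cut by their own marker genes with Vegfc left out of the clustering, and nuclei of 1 library are not replicates.

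Angpt2, a TEK ligand known from sprouting and lymphatic vessels, had few counts, 808 over all nuclei. Lymphatic endothelial-like nuclei had 110 CPM in EWAT (79.9–148) and 70.2 in MWAT (47.7–99.6), against 18.4 and 16.4 CPM in the blood endothelial-like nuclei of those depots. The ratio was 5.96 (4.0–8.80) in EWAT and 4.29 (2.55–7.19) in MWAT. Pericyte-like nuclei had 34.1 CPM in SWAT, 76.1 in EWAT, 26.1 in MWAT, 36.7 in NWAT and 92.4 in HWAT, the last on 9 counts. In EWAT the lymphatic endothelial-like over pericyte-like ratio was 1.45 (0.9–2.34), an interval that holds 1. These exceeded the endothelial-like levels with a ratio interval above 1 in SWAT (2.82, 1.49–5.15), EWAT (4.12, 2.64–6.31) and NWAT (2.55, 1.47–4.30) and not in MWAT (0.597–3.66) or HWAT (0.802–4.37). Adipocyte-like levels were 3.84 CPM in SWAT, 2.25 in EWAT, 3.83 in MWAT, 3.36 in NWAT and 0.811 in HWAT, the last on 3 counts. Adipocyte-like nuclei held 5.17% (HWAT) to 46.2% (NWAT) of a library's Angpt2 UMIs. Angpt2 lies inside Mcph1, which is on the other strand and had 9760 counts, so without a known strand setting reads of either gene cannot be told apart.

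Pgf, a FLT1 ligand, was near the limit of counting in most classes. Pericyte-like nuclei had 40.1 CPM in SWAT (20 counts), 18.4 in EWAT, 18.7 in MWAT, 8.35 in NWAT and 20.5 in HWAT (2 counts), against adipocyte-like levels of 0.853, 0.368, 0.460, 0.140 and 1.08 CPM. Epithelial-like nuclei of EWAT had 28.3 CPM (19.1–40.4), and mesothelial-like nuclei had 15.3 CPM in MWAT and 16.1 in HWAT, where they held 83.5% of the Pgf UMIs. In NWAT endothelial-like nuclei Pgf reached 12.0 CPM (8.64–16.3, 41 counts), of which 37 counts were in capillary-like nuclei.

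Flt1, the VEGF-A, VEGF-B and PlGF receptor, was read mainly in blood endothelial-like nuclei. Its endothelial-like level was 579 CPM in SWAT (552–607), 921 in EWAT (891–952), 679 in MWAT (644–715), 829 in NWAT (799–860) and 597 in HWAT (532–668), against 8.46, 7.31, 7.36, 3.54 and 3.25 CPM in adipocyte-like nuclei. Those ratios were 68.4 in SWAT, 126 in EWAT, 92.2 in MWAT, 234 in NWAT and 184 in HWAT, and 79.6% to 92.6% of Flt1 UMIs of a library were endothelial-like. Lymphatic endothelial-like nuclei had far less, 22.5 CPM in EWAT and 45.3 in MWAT, which is 0.0244-fold and 0.0667-fold the blood endothelial-like level. The share of nuclei with a Flt1 UMI was 49.5%, 67.7%, 46.6%, 64.8% and 45% in endothelial-like nuclei, in the order SWAT, EWAT, MWAT, NWAT, HWAT, at median depths of 1261, 1545, 1041, 1637 and 1174 UMIs. It was 1.73%, 1.77%, 1.03%, 1.08% and 0.547% in adipocyte-like nuclei and 1.40%, 1.81%, 0.935%, 1.78% and 0.406% in macrophage or monocyte-like nuclei. The intervals of these last 2 classes overlapped in every library. No Flt1 share above the macrophage or monocyte-like one was thus detectable in adipocyte-like nuclei. Whether macrophage or monocyte-like nuclei express Flt1 themselves was not tested, so their share is not a measure of free RNA alone. In CPM the macrophage or monocyte-like Flt1 level was above the adipocyte-like one in SWAT, EWAT, MWAT and NWAT, and below it in HWAT. The intervals were apart only in NWAT, at 10.3 (6.70–15) against 3.54 in adipocyte-like nuclei.

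Kdr, the main signalling receptor for VEGF-A, marked capillary-like and lymphatic endothelial-like nuclei, and a mesothelial-like level stood out as well. Endothelial-like levels were 232 CPM in SWAT (215–250), 251 in EWAT (235–267), 139 in MWAT (123–156), 358 in NWAT (338–379) and 122 in HWAT (93.4–156), against adipocyte-like levels of 6.54, 6.25, 5.67, 3.03 and 5.14 CPM. Lymphatic endothelial-like nuclei had 520 CPM in EWAT (452–596) and 364 in MWAT (310–425), which were 2.08-fold (1.78–2.41) and 2.63-fold (2.15–3.20) the blood endothelial-like levels. In capillary-like nuclei Kdr was 368 CPM in SWAT, 441 in EWAT, 336 in MWAT and 506 in NWAT, against 131, 115, 84.2 and 165 in venous-like and 50.4, 55.8, 50.9 and 89.9 CPM in arterial-like nuclei. The capillary-like over arterial-like ratio lay between 5.63 (4.16–7.80) in NWAT and 7.92 (5.92–10.8) in EWAT. The venous-like over arterial-like ratio had an interval above 1 in SWAT, EWAT and NWAT, and was 1.65 (0.892–3.06) in MWAT.

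Mesothelial-like nuclei had 54.2 CPM of Kdr in EWAT (46.5–62.9), 41.8 in MWAT (36.3–48.0), 36.4 in NWAT (28.8–45.5) and 85.2 in HWAT (78.5–92.4, 588 counts). Macrophage or monocyte-like nuclei had 9.32, 4.64, 7.10 and 2.62 CPM in those depots, so the mesothelial-like levels were 5.82-fold, 9.01-fold, 5.13-fold and 32.5-fold higher, and no intervals overlapped. Mesothelial-like Kdr was 21.6% of the endothelial-like level in EWAT, 30.2% in MWAT, 10.2% in NWAT and 70.0% in HWAT, while the 8 endothelial reference genes reached at most 2.66%, 3.62%, 2.34% and 1.14%. With its many mesothelial-like nuclei, HWAT drew 83.4% of its Kdr UMIs from that class. Epithelial-like nuclei of EWAT had 51.9 CPM (39.1–67.6).

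Flt4, the VEGF-C receptor, had its highest level in lymphatic endothelial-like nuclei, 550 CPM in EWAT (480–628) and 564 in MWAT (496–638), against 25.4 and 15.9 CPM in the blood endothelial-like nuclei of those depots. The ratios were 21.7 (17.0–27.8) and 35.5 (24.6–52.7), and both lymphatic intervals overlapped each other. Only EWAT and MWAT had 50 or more lymphatic endothelial-like nuclei, 224 and 426, and such nuclei held 73.2% of MWAT's Flt4 UMIs. Of lymphatic endothelial-like nuclei 52.7% in EWAT and 35.9% in MWAT had a Flt4 UMI, at median depths of 1572.5 and 960.5 UMIs, against 0.187% and 0.374% of macrophage or monocyte-like nuclei. In adipocyte-like nuclei Flt4 had 2 counts in SWAT, 28 in EWAT, 16 in MWAT, 3 in NWAT and 0 in HWAT, the last allowing up to 0.811 CPM.

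Tek, the angiopoietin receptor, was read in blood endothelial-like, lymphatic endothelial-like and FAP-like nuclei. Endothelial-like levels were 305 CPM in SWAT (286–326), 389 in EWAT (370–409), 485 in MWAT (456–516), 346 in NWAT (327–367) and 269 in HWAT (226–318), against adipocyte-like levels of 5.83, 4.5, 10.6, 3.96 and 1.89 CPM. FAP-like levels were 110 CPM in SWAT (96.1–125), 219 in EWAT (199–241), 210 in MWAT (183–241), 245 in NWAT (224–268) and 48.2 in HWAT (30.9–71.7). The FAP-like level was thus below the endothelial-like one in every depot and far above the macrophage or monocyte-like one of 8.20, 5.28, 9.29, 3.55 and 2.62 CPM, with ratios between 13.4 (7.94–24.3) in SWAT and 69.2 (36.1–152) in NWAT.

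The FAP-like Tek level was 35.9% of the endothelial-like level in SWAT, 56.3% in EWAT, 43.3% in MWAT, 70.9% in NWAT and 17.9% in HWAT. No endothelial reference gene passed 5.11%, 2.21%, 3.09%, 3.12% and 1.90% in the same FAP-like sums. Among FAP-like nuclei 16.4% in SWAT, 30% in EWAT, 18.0% in MWAT, 35.9% in NWAT and 6.47% in HWAT had a Tek UMI, against 0.935%, 1.06%, 1.12%, 0.803% and 0.487% of macrophage or monocyte-like nuclei. Median depths of the FAP-like nuclei were 1718.5, 2045.5, 1093, 2322 and 1357.5 UMIs. Flt1 in FAP-like nuclei did not share this, at 7.03, 13.2, 8.97 and 12.6 CPM in SWAT, EWAT, MWAT and NWAT and 0 counts in HWAT.

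Along the vessel tree Tek varied less than Kdr. Tek was 389 CPM in SWAT, 374 in EWAT, 526 in MWAT and 427 in NWAT in arterial-like nuclei, 439, 442, 743 and 466 CPM in venous-like nuclei and 199, 364, 358 and 290 CPM in capillary-like nuclei. Venous-like over capillary-like ratios were 2.20 (1.88–2.58), 1.22 (1.07–1.38), 2.08 (1.7–2.53) and 1.61 (1.40–1.84) in the same order of depots. Flt1 was higher in venous-like than in arterial-like nuclei in all 4 depots, with ratios of 1.48 (1.27–1.72), 1.49 (1.35–1.65), 1.53 (1.29–1.82) and 1.24 (1.10–1.39). Its capillary-like over arterial-like ratio had no common direction, with 1.7 (1.47–1.96) in MWAT and 0.799 (0.717–0.891) in NWAT. Without the sub-cluster led by haemoglobin the NWAT ratio was 0.954 (0.855–1.07), an interval that holds 1. Vegfa was higher in arterial-like than in venous-like nuclei in EWAT (2.11, 1.41–3.20), MWAT (3.35, 1.63–7.73) and NWAT (3.51, 1.61–8.26), while the SWAT interval held 1. Angpt1 was highest in the arterial-like nuclei of MWAT, with 132 CPM there against 14.6 in venous-like and 8.52 in capillary-like nuclei, and in EWAT it had 56.9 CPM in arterial-like, against 10.8 in venous-like and 20.5 in capillary-like nuclei. In SWAT and NWAT the arterial-like and capillary-like intervals of Angpt1 overlapped. Without the sub-cluster led by haemoglobin the arterial-like over capillary-like ratio of Angpt1 was 3.21 (1.35–7.71) in NWAT. In SWAT it was 2.54 (0.98–6.81), an interval that holds 1. Flt4 was low throughout, between 5.72 and 43.2 CPM, and its arterial-like and capillary-like intervals overlapped in all 4 depots. Angpt2 had at most 3 counts in the arterial-like nuclei of a depot, against 17.2, 5.4, 22.0 and 10.7 CPM in venous-like and 9.92, 28.9, 20.4 and 19.2 CPM in capillary-like nuclei.

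**Figure D3:**
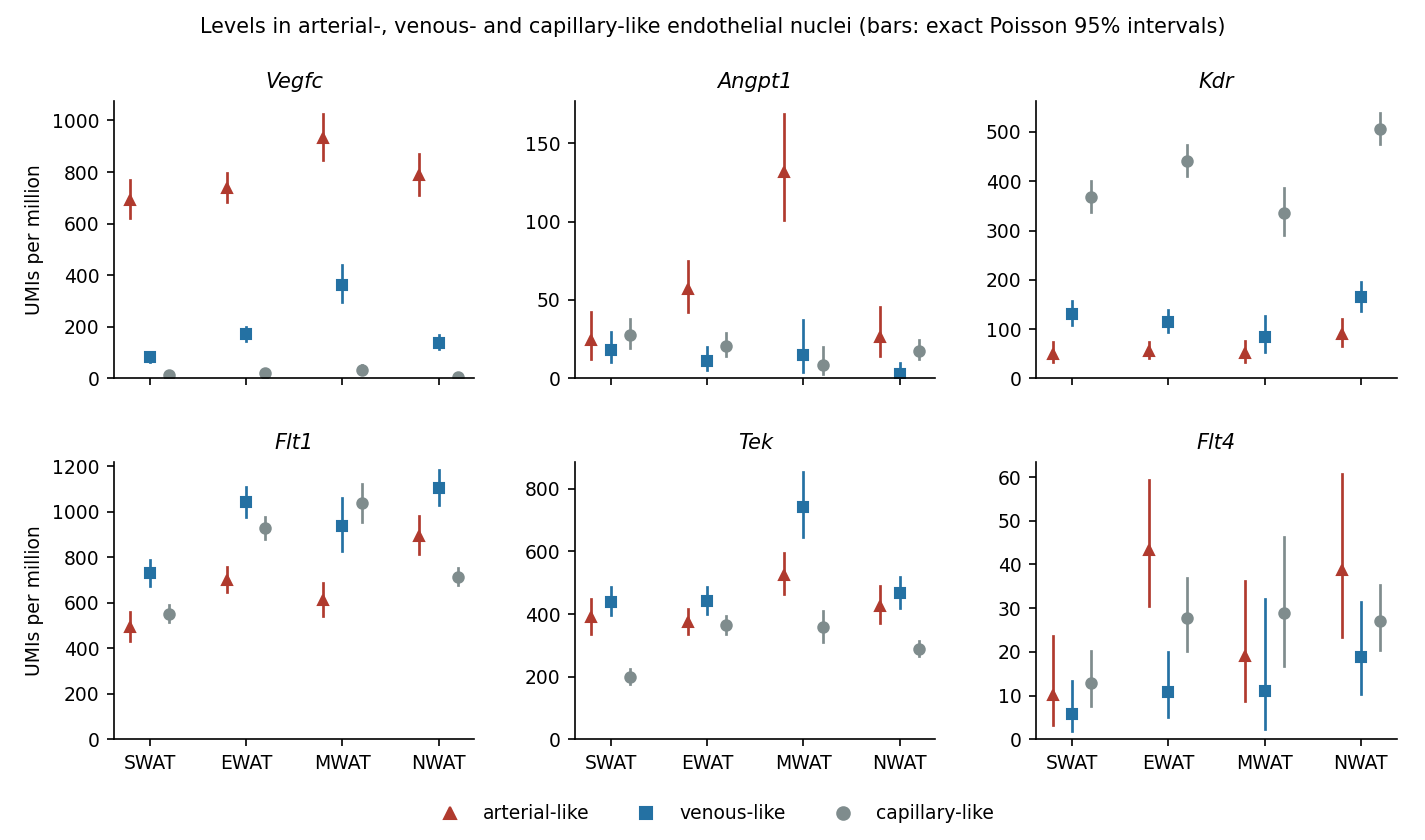
Levels of Vegfc, Angpt1, Kdr, Flt1, Tek and Flt4 in arterial-like (triangles), venous-like (squares) and capillary-like (circles) endothelial nuclei of SWAT, EWAT, MWAT and NWAT, in CPM, with exact Poisson 95% intervals as bars. Vegfc is highest in arterial-like nuclei and Kdr in capillary-like nuclei in each of the 4 libraries.

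The low receptor levels in adipocyte-like nuclei were set against 8 endothelial reference genes of the same library (Pecam1, Cdh5, Emcn, Ptprb, Cyyr1, Egfl7, Erg and Adgrl4), since free RNA from 1 source keeps its genes in 1 ratio. These 8 genes are also the markers that named the endothelial-like class, and what this does to their range was not tested. The adipocyte-like level of these genes was 1.21% to 3.33% of the endothelial-like level in SWAT, and the range was 0.657% to 1.74% for EWAT, 1.18% to 2.61% for MWAT, 0.317% to 1.0% for NWAT and 0.282% to 0.918% for HWAT. Receptors lay inside that range in 12 of 20 receptor and depot pairs: all 4 in SWAT, Flt1 and Tek in EWAT, Tek in MWAT, Flt1, Kdr and Flt4 in NWAT, and Flt1 and Tek in HWAT. The Flt4 intervals in SWAT (0.159–5.37) and NWAT (0.109–1.63) were wider than the range, so its place there is not settled. How many other genes lie inside the range was not counted, so the count is a description. Flt1 was at 1.46%, 0.793%, 1.08%, 0.427% and 0.544% and thus never above the range. Tek was at 1.91%, 1.16%, 2.18%, 1.14% and 0.704%, above the range in NWAT, where its interval (0.907–1.43) held the top of the range. Kdr was at 2.82%, 2.49%, 4.09%, 0.846% and 4.22% and Flt4 at 1.37%, 5.07%, 15.4%, 0.541% and 0%, with both above the range in EWAT and MWAT, and Kdr in HWAT. Of the ligands higher in endothelial-like nuclei, Angpt2 was at 31.8%, 12.2%, 23.4%, 23.3% and 1.72%, above the range in every library. Its HWAT interval (0.332–5.67) held the top of the range, and whether adipocyte-like nuclei make Angpt2 was not tested.

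Since classes other than blood endothelial-like nuclei also held Kdr, Flt4 and Tek UMIs, a second ratio, chosen after these values were seen, took the level in all other nuclei of the library as the base. On it Kdr in adipocyte-like nuclei was 6.04% in EWAT, 12.4% in MWAT and 11.3% in HWAT, beside endothelial markers at 2.29% to 5.61%, 7.89% to 15.1% and 6.33% to 21.8%. Flt4 was 5.49% in EWAT and 11.6% in MWAT, beside lymphatic markers at 3.55% to 6.91% and 6.69% to 15.4%. Tek in NWAT was 2.64%, inside the endothelial markers at 1.04% to 3.17% and the FAP markers at 1.28% to 8.71%. Kdr in EWAT thus lay above the endothelial markers and inside the mesothelial ones, which were at 3.22% to 9.34%. On the same base the ligands were far above 100%, with Vegfa at 622% in SWAT, 843% in EWAT, 1203% in MWAT, 819% in NWAT and 1032% in HWAT.

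**Figure D4:**
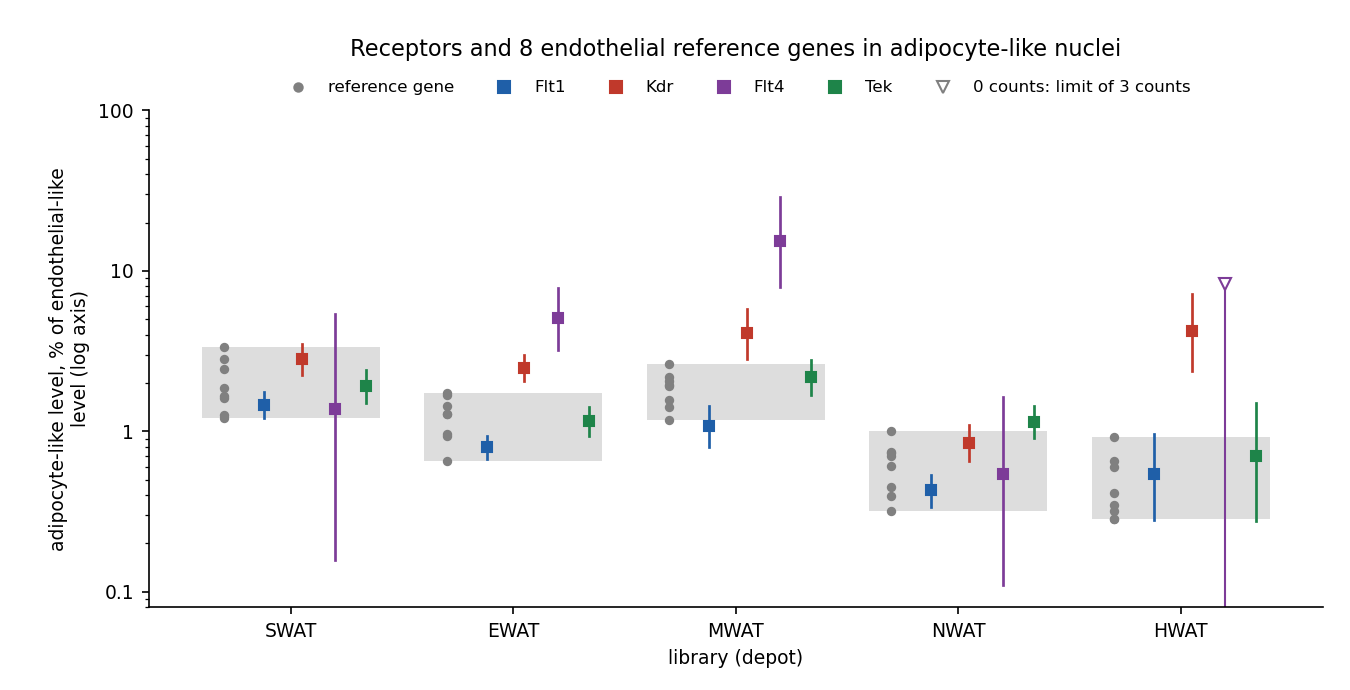
Adipocyte-like level of each receptor as a percent of the endothelial-like level in the same library (squares, with 95% intervals, on a log axis), beside the 8 endothelial reference genes (grey points, with their range as a grey box); the open triangle marks the 3-count limit of Flt4 in HWAT. Flt1 does not exceed the reference genes in any library, while Kdr and Flt4 do in EWAT and MWAT.

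The mirror comparison took 6 adipocyte reference genes (Adipoq, Plin1, Plin4, Cidec, Lipe and Acvr1c), all of them markers that named the adipocyte-like class. Vegfa in endothelial-like nuclei was 13.8% of the adipocyte-like level in SWAT, 12.0% in EWAT, 8.25% in MWAT, 11.6% in NWAT and 8.65% in HWAT. The reference genes were at 8.55% to 37.3%, 5.32% to 20.8%, 3.59% to 18.6%, 6.30% to 49.3% and 1.59% to 13.2%, so Vegfa was inside the range in all 5 libraries, and Angpt1 was above it in none. These are sums over the class: in the arterial-like nuclei of MWAT alone, Angpt1 was 36.0% (27.5–46.3) and Vegfa 19.1% (14.2–25.1) of the adipocyte-like level. Vegfb, at 46.8%, 42.7%, 28.2%, 26.7% and 13.6%, was above the range in 4 of 5. Angpt1 in FAP-like nuclei was 20.7% to 90.5% of the adipocyte-like level and above the reference range of FAP-like nuclei in all 5 libraries. It was also above the range in 4 of 4 libraries in mesothelial-like nuclei (31.9% to 59.8%) and in 4 of 5 in pericyte-like nuclei (34.7% to 76.3%). Free RNA was estimated from the same reference genes, the 8 endothelial ones for adipocyte-like nuclei and the 6 adipocyte ones for endothelial-like nuclei. The sum of all retained nuclei of the library served as its profile. It was 12.2%, 9.49%, 14.9%, 5.43% and 11.9% of adipocyte-like UMIs and 29.2%, 20.4%, 31.8%, 30.6% and 32.9% of endothelial-like UMIs. With it subtracted, endothelial-like Vegfa and Angpt1 were at 0 in all 5 libraries and adipocyte-like Flt1 at 0 in 4, with 0.826 CPM in HWAT. Because the estimate rests on the reference genes of the percents above, these values restate that comparison and are no separate evidence. They are for class sums and not for vessel subsets. Adipocyte-like Kdr was left at 1.69 CPM in SWAT, 2.0 in EWAT, 0.632 in MWAT and 0.598 in NWAT, each above its 3-count limit, as were Tek in NWAT at 0.975 CPM and Flt4 in EWAT at 0.332 CPM. Adipocyte-like Angpt2 was left at 3.11 CPM in SWAT, 1.69 in EWAT, 3.03 in MWAT and 3.10 in NWAT, each above its limit. In HWAT it was 0.444 CPM, under the limit of 0.811 CPM.

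Between depots, each library was set against the mean log2 level of the other 4, with a call at 2-fold for genes of at least 20 counts. Each count of calls is set beside the share of all tested genes called the same way. In adipocyte-like nuclei HWAT stood below the others for 7 of 10 genes, against 19.1% of all 17009 genes tested. The median log2 difference over the 10 was -1.17, beside -0.22 over all genes. HWAT differed by -1.12 for Vegfa, -1.01 for Vegfb, -1.52 for Vegfc, -1.23 for Angpt1, -1.80 for Angpt2, -2.04 for Flt4 and -1.51 for Tek. Vegfc and Angpt2 rested on 3 counts each in HWAT and Flt4 on 0. In the 2 ligands with the most counts the HWAT intervals, 190 to 220 CPM for Vegfa and 113 to 135 CPM for Angpt1, overlapped those of no other depot. Pgf was called above in HWAT, at 1.54 on 4 counts, against 11.8% of all genes. Of the 8 endothelial reference genes 7 were also called below in HWAT adipocyte-like nuclei.

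A list of 17 lymphocyte and plasma cell markers moved with the HWAT library. Their summed level was 593 CPM in the adipocyte-like nuclei of HWAT, against 9.46 in SWAT, 8.09 in EWAT, 20.9 in MWAT and 10.9 in NWAT, with 1 marker at 0 in HWAT. In endothelial-like nuclei the sum was 829 CPM in HWAT, against 62.4, 63.3, 61.1 and 112 CPM, with 6 at 0 in HWAT. Of 1827 HWAT adipocyte-like nuclei 953 held such a UMI. In the other 874 nuclei Vegfa was 230 CPM (207–254), Angpt1 137 (120–156) and Vegfb 46.8, and the HWAT count below fell to 3 of 10. Vegfa in these nuclei was thus at the NWAT level of 230 CPM and no longer the lowest, while Angpt1 stayed below the NWAT level of 210 CPM. HWAT also held 295 adipocyte-like nuclei led by Ucp1, the thermogenic uncoupling protein of brown and beige fat, at 1447 CPM against 20.1 CPM in the other 1532. Those nuclei had 301 CPM of Vegfa, against 184 CPM in the rest (ratio 1.64, 1.38–1.93), while Angpt1 had 141 against 120 CPM (ratio 1.18, 0.928–1.48).

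In NWAT adipocyte-like nuclei 3 genes were called below, Vegfb at -1.08, Pgf at -2.08 and Flt4 at -1.70, against 13% of all genes, and the median of the 10 was -0.86. Pgf and Flt4 rested on 3 counts each there. Over the 8 endothelial reference genes the NWAT median was -0.82, with Pecam1 and Erg called below, and over all genes it was 0.05. Vegfa in NWAT differed by -0.91 and so missed the 2-fold call, with 230 CPM against 535 to 578 CPM in EWAT, SWAT and MWAT. MWAT was above the others for 4 genes, Vegfb at 1.19, Vegfc at 1.24, Flt4 at 3.24 and Tek at 1.48, against 12.7% of all genes. EWAT was above for Vegfc at 1.09 and Flt4 at 2.05, against 7.61%, and SWAT was below for Flt4 at -1.55, against 7.01%. The Flt4 level in SWAT was under that of 3 counts. The MWAT and EWAT calls for Flt4, Tek and Vegfc are on genes whose adipocyte-like level was at most 10.6 CPM, and 4 of 8 endothelial reference genes were called above in the same MWAT sums. Vegfa differed little among SWAT, EWAT and MWAT, with MWAT 1.06-fold (1.02–1.10) SWAT and SWAT 1.02-fold (0.991–1.05) EWAT, an interval that holds 1. No gene of the 10 was called above in SWAT (5.16% of all genes) or NWAT (4.24%), or below in EWAT (5.9%) or MWAT (3.91%).

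**Figure D5:**
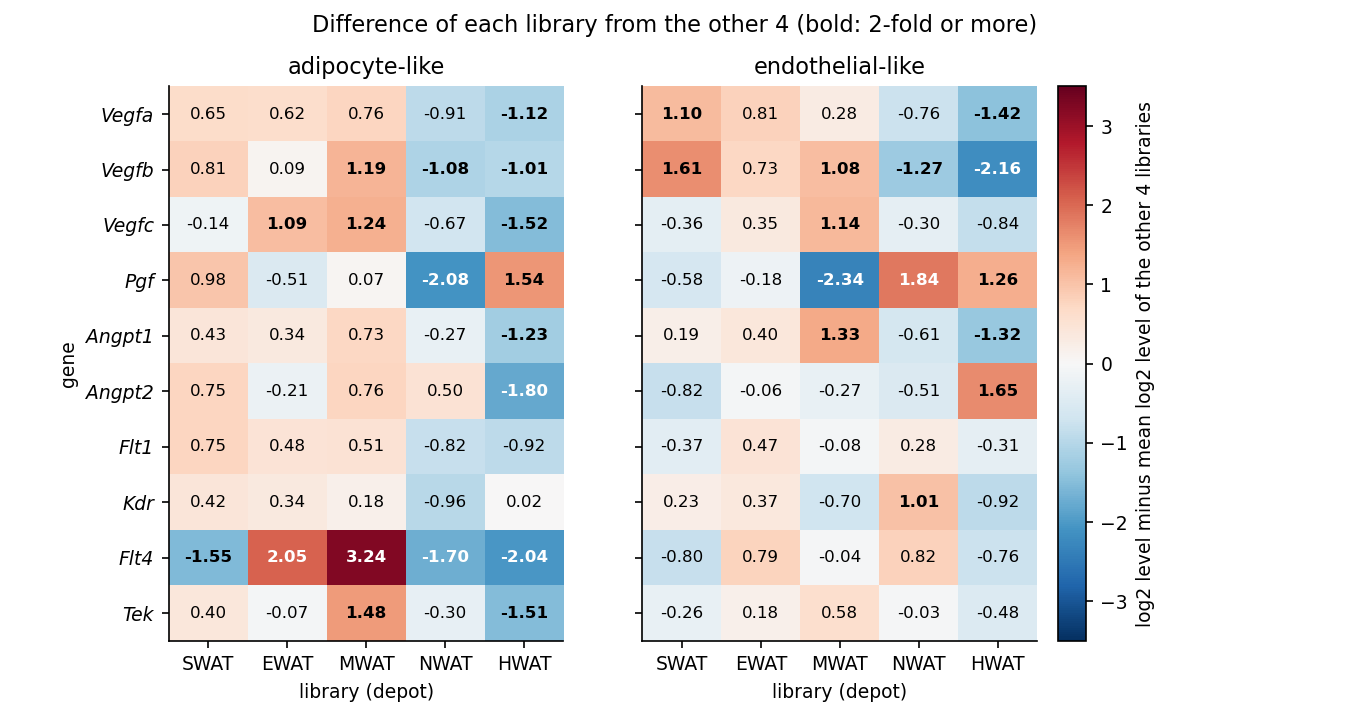
Difference of each library from the mean of the other 4 in log2 level, for adipocyte-like and endothelial-like nuclei, by gene (rows) and depot (columns), with differences of 2-fold or more in bold. The adipocyte-like HWAT column is negative for Vegfa (-1.12), Vegfb (-1.01) and Angpt1 (-1.23).

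In endothelial-like nuclei NWAT was above for Kdr at 1.01 and Pgf at 1.84, against 4.39% of all 13809 genes tested. No other receptor was called in a depot, and the share of all genes called in at least 1 depot was not counted. NWAT's 358 CPM of Kdr was 1.43-fold (1.31–1.56) EWAT, the next depot, and 2.94-fold (2.28–3.86) HWAT, while the Kdr intervals of MWAT and HWAT overlapped. The share of capillary-like nuclei, the vessel subset with the highest Kdr, was highest in NWAT at 61.6% and, among SWAT, EWAT, MWAT and NWAT, lowest in MWAT at 29.9%, and within capillary-like nuclei NWAT had 506 CPM (476–538), against 441 (410–475) in EWAT. The part of this mix in the Kdr call was not tested. For Flt1 EWAT was 1.59-fold (1.5–1.69) SWAT, the lowest, and for Tek MWAT was 1.80-fold (1.51–2.17) HWAT. Vegfc was called above in MWAT at 1.14 with Vegfb at 1.08 and Angpt1 at 1.33, against 7.07% of all genes, and MWAT was below for Pgf at -2.34 on 2 counts, against 4.84%. Arterial-like nuclei, where Vegfc was highest, were 22.2% of endothelial-like nuclei in MWAT, against 14.7% to 20.8% in SWAT, EWAT and NWAT, and MWAT had the highest Vegfc level of these 4 depots within each of the 3 subsets. HWAT was above for Angpt2 at 1.65 and Pgf at 1.26, against 9.34%, with an Angpt2 level of 47.1 CPM (30.2–70.1, 24 counts), against 18.4 CPM in EWAT, the next depot (ratio 2.56, 1.54–4.11).

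The other calls in endothelial-like nuclei were on ligands that were higher in adipocyte-like nuclei. HWAT was below for Vegfa at -1.42, Vegfb at -2.16 and Angpt1 at -1.32, against 13.5% of all genes, and 5 of 6 adipocyte reference genes were below in the same nuclei. SWAT was above for Vegfa at 1.10 and Vegfb at 1.61, against 4.98%, and 2 of 6 adipocyte reference genes were above there. NWAT was below for Vegfb at -1.27, against 7.55%. EWAT had no call above (4.16% of all genes) or below (4.34%), and SWAT none below (4.63%). HWAT had 382 endothelial-like nuclei, and 306 of them were in a sub-cluster led by immunoglobulin and secretory transcripts that took no vessel name. The part of free RNA and of these nuclei in the depot differences was not tested.

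Among 8 further genes of the family (Vegfd, Angpt4, Nrp1, Nrp2, Tie1, Ccbe1, Adamts3 and Svep1), 2 were at least 2-fold higher in endothelial-like than in adipocyte-like nuclei in all 5 depots, the co-receptor Nrp2 and the TEK partner Tie1, against 10.4% of all genes. Nrp2 was 298 CPM in SWAT, 359 in EWAT, 287 in MWAT, 370 in NWAT and 198 in HWAT endothelial-like nuclei, against 8.04, 5.61, 28.7, 4.61 and 66.5 CPM in adipocyte-like nuclei. Tie1 was 155, 199, 179, 210 and 222 CPM in endothelial-like nuclei, against 4.77, 3.49, 5.83, 1.40 and 1.35 CPM. In the other direction 1 gene passed, Svep1, a matrix protein known to bind angiopoietins, against 5.76% of all genes. It was 453 CPM in SWAT, 327 in EWAT, 340 in MWAT, 324 in NWAT and 136 in HWAT adipocyte-like nuclei, against 34.2, 28.7, 22.6, 21.1 and 5.89 CPM in endothelial-like nuclei. Nrp1, the co-receptor of VEGF-A, was high in both classes, with 461, 767, 388, 871 and 269 CPM in endothelial-like and 203, 245, 222, 264 and 190 CPM in adipocyte-like nuclei. Vegfd, a further FLT4 ligand, had 33.9, 37.5, 28.4, 37.1 and 16.8 CPM in adipocyte-like nuclei, against 13.8, 26.6, 37.1, 13.8 and 9.82 CPM in endothelial-like nuclei, and its order turned round in MWAT, where the ratio interval of 0.584 to 1.01 held 1. Ccbe1, needed to activate VEGF-C, was 68.1 CPM in EWAT adipocyte-like nuclei, against 0.569 in SWAT, 7.82 in MWAT, 1.91 in NWAT and 11.1 in HWAT.

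Of 9 genes of oxygen sensing (Hif1a, Epas1, Arnt, Hif3a, Vhl, Egln1, Egln2, Egln3 and Hif1an), 1 was at least 2-fold higher in endothelial-like nuclei in all 5 depots, against 10.4% of all genes, and none in adipocyte-like nuclei, against 5.76%. The share higher in endothelial-like nuclei was near that of all genes. That gene was Epas1, which encodes HIF-2 alpha, with 363, 542, 472, 533 and 414 CPM in endothelial-like and 70.5, 56.9, 112, 83.6 and 68.4 CPM in adipocyte-like nuclei. Hif1a in adipocyte-like nuclei was 67.4 CPM in SWAT, 72.0 in EWAT, 79.6 in MWAT, 39.3 in NWAT and 32.7 in HWAT. None of the others on the list had both NWAT and HWAT as its lowest depots. NWAT was highest for Vhl, at 15.7 CPM, and Hif1an, at 24.4, and HWAT for Egln1, at 34.9, and Egln2, at 44.9. Over the next depot the ratio interval held 1 for Vhl (0.858–1.59), Hif1an (0.985–1.31) and Egln1 (0.893–1.33), and not for Egln2 (1.24–1.79). In adipocyte-like nuclei Hif3a was called above in NWAT, against 4.24% of all genes, and Egln3 in HWAT, against 11.8%. None of the 9 was called below in NWAT (13% of all genes) or HWAT (19.1%). The median log2 difference over the 9 genes was 0.09 in NWAT and 0.002 in HWAT, beside 0.05 and -0.22 over all genes. Of 6 endothelial genes known to respond to VEGF, 5 (Dll4, Apln, Nos3, Pdgfb and Notch4) were at least 2-fold higher in endothelial-like nuclei in all 5 depots, against 10.4% of all genes, and Esm1 was not.

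By correlation of log2(CPM + 10) over the 45 class and depot sums, the genes most alike in pattern among 16787 were Chpt1 for Vegfa (Pearson r = 0.892), Glrx5 for Vegfb (0.810), Galnt15 for Vegfc (0.778), Flywch2 for Pgf (0.784), Steap4 for Angpt1 (0.855) and Gja4 for Angpt2 (0.868). For the receptors they were Adgrl4 for Flt1 (0.953), Ephb4 for Kdr (0.911), Klhl4 for Flt4 (0.938) and Grasp for Tek (0.902). Steap4 was a pericyte marker and Adgrl4 an endothelial marker in naming the classes. The sums share libraries, depth and free RNA, so these values are descriptions only.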

How the data were processed

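The deposited files hold raw UMI counts by gene and nucleus. Per the file headers, the authors' counting tool was Cell Ranger 6.0.1, and the submitters' processing notes list the mm10 genome. Which annotation release and strand setting were used, and whether intronic reads were counted, are not given in the sources used here. The genes, marker lists and comparisons were chosen with earlier results of these data known.

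Barcodes with at least 200 genes and at most 10% mitochondrial UMIs were kept (the files hold none under 500 UMIs), and doublets were called by likeness to simulated doublets at 0.8% per 1000 nuclei. Log values of 2000 variable genes, without the 10 genes, were reduced to 40 components and clustered (Leiden, resolution 1, 20 neighbours, leidenalg 0.10.2), and clusters were named by their marker genes. One cluster of 275 MWAT nuclei stayed unnamed. Counts were summed per class and library for classes of at least 50 nuclei. Levels have exact Poisson intervals, shares exact binomial ones and ratios exact conditional ones (scipy 1.17.1), all at 95%. A log2 difference of a depot is taken with 0.5 counts added, and a count of 0 is given as an upper limit of 3 counts. Genes called between depots or classes needed 20 counts. The steps were tested on simulated data. All 10 genes are described, and the genes most alike are those with the highest Pearson correlation among genes of at least 100 counts. Gene coordinates are from GENCODE on GRCm38. The alternatives were other doublet rates, other filters on nuclei and genes, another resolution, naming per nucleus, other scalings, free RNA subtracted and libraries or nuclei left out. Python 3.11.15, numpy 2.4.6, pandas 2.3.3, scikit-learn 1.9.0 and matplotlib 3.10.9 were used.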

Additional observations from a re-analysis of the deposited data

How the results depend on the processing

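No paired analysis was possible because each depot has 1 library. Under 12 alternatives, the 6 genes called higher in endothelial-like than in adipocyte-like nuclei stayed 6, and the 3 called the other way were 2 with no doublets removed, with the 10 genes allowed in the clustering and at Leiden resolution 2, and 3 otherwise. The 12 receptor and depot pairs inside the reference range were 11 to 13 under 9 alternatives. None of the 32 depot differences called at 2-fold changed sign under an alternative. Of the 68 not called, 21 changed sign under at least 1, 7 of them with free RNA subtracted and 19 under another. With free RNA subtracted, 28 differences had both sides at or under 3 counts and gave no value.

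Counts of genes called between depots moved more, and most were of 0 to 3 genes. In adipocyte-like nuclei the SWAT count above was 1 instead of 0 with no doublets removed, doublets at 1.6%, resolution 2, naming per nucleus, mean CPM per nucleus, free RNA subtracted, without HWAT, or without the cluster led by haemoglobin transcripts. The SWAT count below was 0 instead of 1 with no doublets removed, at least 500 genes, free RNA subtracted or 100 counts per gene. The EWAT count above was 1 instead of 2 at 500 genes, with the 10 genes in the clustering, at 100 counts, without HWAT, or without HWAT nuclei holding lymphocyte UMIs, and below 1 instead of 0 at 1.6% or 500 genes. The MWAT count above was 2 instead of 4 with free RNA subtracted. The NWAT count below was 5 instead of 3 with mean CPM or median-of-ratios factors, 7 without HWAT, and 1 at 100 counts or with free RNA subtracted, which also gave 2 above instead of 0. The HWAT count above was 0 instead of 1 at 2% mitochondrial UMIs, naming per nucleus or 100 counts, and below 3 instead of 7 with free RNA subtracted or without nuclei holding lymphocyte UMIs.

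In endothelial-like nuclei the SWAT count above was 1 instead of 2 with no doublets removed, free RNA subtracted or without HWAT, and below 2 instead of 0 at 1.6%, and 1 at 2% mitochondrial UMIs, with mean CPM or without HWAT. The EWAT count above was 1 instead of 0 at 1.6%, 2% mitochondrial UMIs or free RNA subtracted. The MWAT count above was 1 instead of 3 with no doublets removed or without HWAT, and below 0 instead of 1 at 100 counts. The NWAT count above was 1 instead of 2 with no doublets removed, naming per nucleus, median-of-ratios factors, 100 counts or without HWAT, and below 2 instead of 1 with mean CPM and 3 without HWAT. The HWAT count above was 1 instead of 2 at 100 counts, and below 1 instead of 3 with free RNA subtracted. The causes were not tested. The alternatives that leave out nuclei with lymphocyte UMIs or the haemoglobin-led clusters, and the ratio to all other nuclei, were chosen after the data were seen.

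Depth limits Pgf, Angpt2 and Flt4 outside their main classes and all endothelial-like values of HWAT, with 382 nuclei. With 1 library per depot, a depot and its pool of mice cannot be told apart.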
